A study of Mus musculus with 24 samples.

Results

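The comparison set macrophages sorted from tumour-bearing mouse lung against the nearest sorted population of healthy mouse lung. The tumour group, MacB3-2wk, held CD11b+ CD11c+ cells with high CD64 and no Ly6G, taken 2 weeks after LLC-Luc cells, a luciferase-labelled Lewis lung carcinoma line, were placed in the left lung in Matrigel. The naive group, MacB1-N, held CD11b+ CD11c+ Ly6G- cells with low CD64 from uninjected mice. Members were chosen by title: the 3 libraries of MacB3-2wk and the 3 of MacB1-N, 6 of the 24 libraries in the series. All donors were C57BL/6 males of 10 to 16 weeks, and each library pooled tissue of 3 to 5 mice from 1 of 3 independent experiments. Tumour samples came from left lobes that held tumour, whereas naive samples came from all lobes. Tumour status, the CD64 gate and the lobes taken therefore cannot be told apart in any difference below. A pool also hides the spread between single mice, and the model is 1 carcinoma line at 1 site.

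CD64, encoded by Fcgr1, is the high-affinity receptor for IgG and is commonly used to separate macrophages from dendritic cells. CD11b and CD11c are carried by several kinds of lung phagocyte, among them interstitial macrophages, dendritic cells and patrolling (nonclassical) monocytes. Macrophages of tumours are known for taking up dead cells, remodelling matrix, making chemokines that draw in leukocytes, and depleting arginine through arginase 1.

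The RNA followed the gates where they could be checked. Fcgr1 read 173, 184 and 185 FPKM in MacB3-2wk and 9.01, 10.8 and 8.78 FPKM in MacB1-N, a ratio of group means of 18.9-fold for the gene whose protein the gates used. Itgam, which encodes CD11b, read 366, 251 and 283 FPKM in MacB3-2wk and 327, 316 and 214 FPKM in MacB1-N, and Itgax, which encodes CD11c, read 73.8, 50.01 and 93.03 FPKM in MacB3-2wk and 114, 103 and 91.99 FPKM in MacB1-N. The groups overlapped for both integrin genes. Ly6g was listed at 0 in all 6 libraries, and Siglecf, a marker of alveolar macrophages and eosinophils, was low in each of them, at 0.190, 5.26 and 3.02 FPKM in MacB3-2wk and 4.92, 2.07 and 8.77 FPKM in MacB1-N. FPKM is the number of fragments scaled to transcript length and to all mapped fragments of the library, so levels of different genes can be set side by side. Levels in different libraries also depend on what else each library holds. FPKM carries no read totals and the absolute depth is unknown. From the step size of low values the MacB1-N libraries had 0.795 to 0.826 times the relative depth of the deepest library of the series, and the MacB3-2wk libraries 0.561 to 0.771 times. Protein-coding genes held 16.9% to 27% of summed FPKM in MacB1-N and 17.6% to 27.8% in MacB3-2wk, and microRNA genes held 47.5% to 72.7% and 51.8% to 64.0%.

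Of 17156 genes with a group mean of at least 1 FPKM in some group, 1427 (8.32%) were higher in MacB3-2wk and 2254 (13.1%) were lower. Among the 13209 protein-coding genes tested the shares were 9.74% and 14.2%. Groups did not overlap, with all 3 tumour libraries on 1 side, for 17.9% of genes on the higher side and 25.8% on the lower. A gene was called when limma's adjusted p was under 0.05 and the difference was at least 2-fold on the log2(FPKM + 1) scale, where 1 unit is a doubling. That scale understates changes of genes near 1 FPKM. The balance between higher and lower depended on the scaling: quantile normalization gave 1839 higher and 1711 lower, and rescaling to the protein-coding sum gave 957 and 3019. The median difference over all genes was -0.11 as deposited, and the rescalings moved it by 0.12 and -0.21. Replicates 1, 2 and 3 of both groups were run in lanes 2, 3 and 7, so each lane held 1 library of each group. With lane as a term, limma called 1384 genes higher and 2204 lower over the 18 MacB libraries, and 660 and 1057 over the 6 libraries alone, where 1205 and 1979 were called without that term. In the last fit 42 of the 155 named genes called lost their call, at adjusted p of 0.05 to 0.26. Among them were Ccl22 (0.0833), Irf7 (0.0585), Hmox1 (0.05), Nr4a1 (0.0624), Vegfa (0.0505), Zbtb46 (0.108) and Scgb1a1 (0.0857). The calls used these same 6 libraries, so directions within lanes largely follow from them and are no separate check on lane. Of the 226 list or named genes called higher, 224 were higher within all 3 lanes, and all 135 called lower were lower within all 3. The exceptions were Atp6v0d2, which lost its call without tumour replicate 2 or 3 or naive replicate 1 or 2 (differences 1.31 to 1.94), and Ltc4s, which lost it without tumour replicate 1 (1.40) or naive replicate 1 (1.30).

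**Figure D1:**
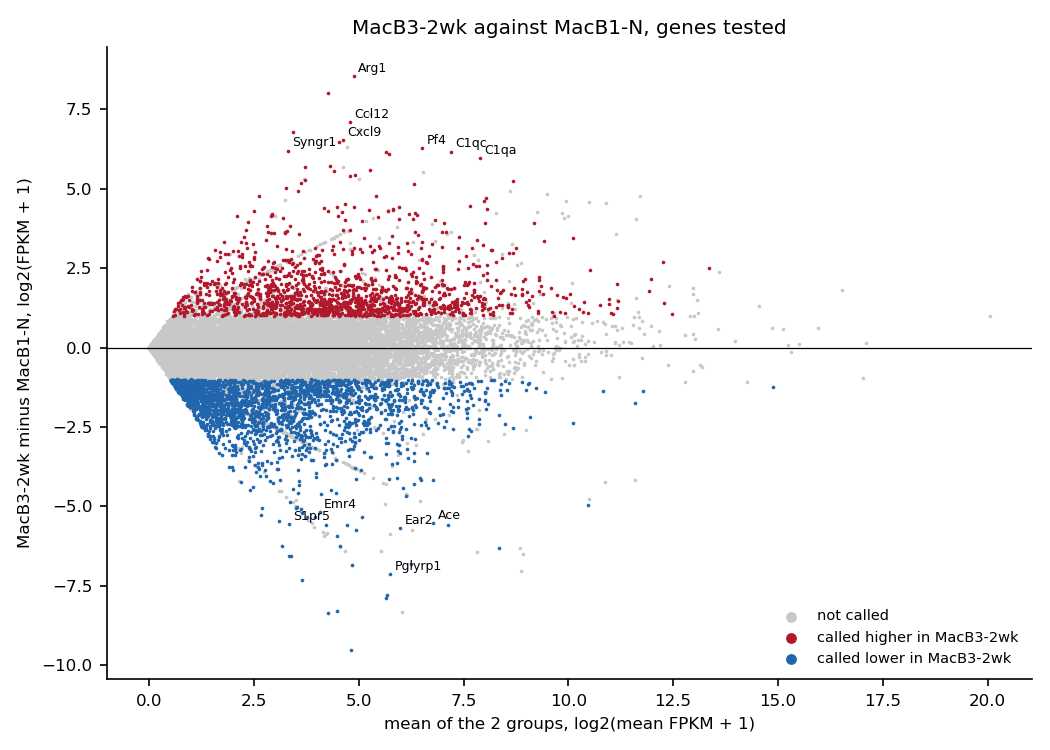
Each point is 1 of the 17156 genes tested. The x axis is the mean level of both groups in log2(mean FPKM + 1), and the y axis is the difference MacB3-2wk minus MacB1-N in log2(FPKM + 1). Red marks the 1427 genes called higher, blue the 2254 called lower. Arg1 is the highest of the labelled genes and Pglyrp1 the lowest.

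Arg1, the gene of arginase 1, had the largest rise among called protein-coding genes with at least 20 FPKM in MacB3-2wk. It lies at chr10:24915221-24927484 (GRCm38) and read 538, 678 and 495 FPKM in MacB3-2wk and 0.297, 0.391 and 0.858 FPKM in MacB1-N. No tumour library was under 495 FPKM and no naive library above 0.858 FPKM. The difference was 8.56 ± 0.44 (SE) log2 units, with an adjusted p of 1.09e-10 from limma. The other 9 of the 10 highest were 4 chemokine genes, the C1q chain genes C1qa and C1qc, and Gpnmb, Syngr1 and Lhfpl2. Their differences ran from 5.96 to 7.11, and the groups did not overlap for any, a condition of the rule that named them.

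Among those chemokines, Ccl12, a ligand of the monocyte receptor CCR2, read 299.6, 283 and 324 FPKM in MacB3-2wk and 2.77, 1.82 and 0 FPKM in MacB1-N. Cxcl9, an interferon-induced ligand of CXCR3 on T cells, read 223, 245 and 229.6 FPKM in MacB3-2wk and 2.54, 0.870 and 1.45 FPKM in MacB1-N. The tumour libraries lay close together for both genes, while 1 naive library listed Ccl12 at 0. Cxcl3, a neutrophil attractant, read 308, 239.9 and 121 FPKM in MacB3-2wk and 1.10, 1.86 and 1.21 FPKM in MacB1-N. Pf4, known from platelets and also made by some tissue macrophages, read 599.6, 1233 and 584 FPKM in MacB3-2wk and 14.3, 9.20 and 4.81 FPKM in MacB1-N. Replicate 2 was the highest tumour library for Pf4 and replicate 1 for Cxcl3, and all tumour libraries were above all naive ones. The platelet genes Gp5 and Gp9 read at most 0.295 FPKM in any MacB3-2wk library. Their list of 9 red cell and platelet genes summed to 4.39 to 15.3 FPKM there and 42.2 to 159 FPKM in MacB1-N. Which cells gave the Pf4 RNA was not tested.

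C1qa, C1qb and C1qc encode the 3 chains of C1q, the recognition part of the classical complement pathway, and stand side by side on chromosome 4. C1qa (chr4:136895917-136898803) read 1727, 1903 and 1961 FPKM in MacB3-2wk and 24.4, 27.1 and 36.1 FPKM in MacB1-N. C1qc (chr4:136889804-136893065) read 1275, 1164 and 1317 FPKM in MacB3-2wk and 17.6, 13.5 and 18.3 FPKM in MacB1-N. C1qb read 2603, 2211 and 2719 FPKM in MacB3-2wk and 63.5, 52.8 and 78.8 FPKM in MacB1-N. The 3 chains were alike in pattern: the tumour libraries differed among themselves by little next to the 38.6-fold (C1qb) to 76.1-fold (C1qc) ratios between group means. Gpnmb, a transmembrane glycoprotein of lipid-laden macrophages, read 333, 368 and 371 FPKM in MacB3-2wk and 1.36, 2.45 and 14.6 FPKM in MacB1-N. Lhfpl2, a tetraspan membrane protein, read 269.8, 442 and 384 FPKM in MacB3-2wk and 1.44, 2.42 and 15.9 FPKM in MacB1-N. For both genes naive replicate 3 stood above the other naive libraries and far under every tumour library. Syngr1, a vesicle membrane protein, read 59.02, 115 and 83.6 FPKM in MacB3-2wk and 0.205, 0.0312 and 0.183 FPKM in MacB1-N.

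**Figure D2:**
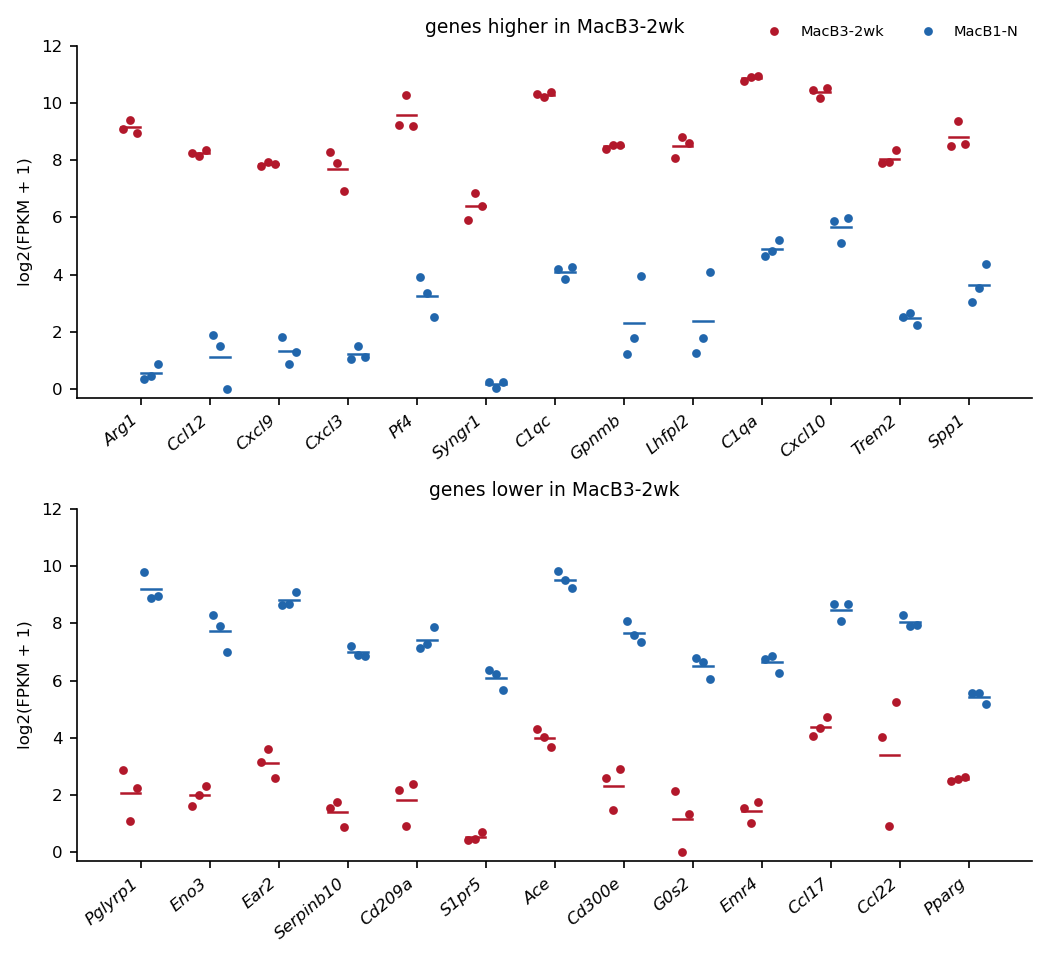
Points are single libraries (red MacB3-2wk, blue MacB1-N, replicates 1 to 3 from left to right) and short lines are means of the 3 plotted values. The y axis is log2(FPKM + 1). The upper panel shows the 10 highest genes with Cxcl10, Trem2 and Spp1, the lower panel the 10 lowest with Ccl17, Ccl22 and Pparg. No red point lies among the blue points of the same gene, which the naming rule required of the 10 highest and 10 lowest.

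Of the 10 lowest genes 5 belonged to the list of nonclassical (patrolling) monocyte genes: Pglyrp1, Ace, Cd300e, Eno3 and Emr4. Pglyrp1, a peptidoglycan-binding protein, read 6.30, 1.13 and 3.72 FPKM in MacB3-2wk and 876, 471 and 491 FPKM in MacB1-N, a difference of -7.13 ± 0.50 (SE) with an adjusted p of 7.82e-09. Ace, angiotensin-converting enzyme (chr11:105967945-105989964), read 18.6, 15.2 and 11.8 FPKM in MacB3-2wk and 912, 727 and 597 FPKM in MacB1-N. Cd300e, an activating receptor of monocytes, read 5.09, 1.80 and 6.45 FPKM in MacB3-2wk and 268, 192 and 163 FPKM in MacB1-N. Naive replicate 1 was the highest library for all 3 genes, and no tumour library came near the naive range. Eno3, a muscle-type enolase, read 2.08, 3.05 and 4.04 FPKM in MacB3-2wk and 312, 240.5 and 126 FPKM in MacB1-N. Emr4, an adhesion receptor also called Adgre4, read 1.93, 1.03 and 2.43 FPKM in MacB3-2wk and 108, 116 and 75.6 FPKM in MacB1-N. S1pr5, a sphingosine-1-phosphate receptor that patrolling monocytes carry, read 0.339, 0.388 and 0.626 FPKM in MacB3-2wk and 81.01, 74.3 and 49.6 FPKM in MacB1-N. For these 3 genes the tumour libraries were at or under 4.04 FPKM.

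The rest of the 10 lowest had other known roles. Cd209a, a lectin of monocyte-derived dendritic cells, read 3.58, 0.894 and 4.27 FPKM in MacB3-2wk and 139, 152 and 231 FPKM in MacB1-N. Serpinb10, an intracellular protease inhibitor, read 1.93, 2.43 and 0.836 FPKM in MacB3-2wk and 148, 118 and 115 FPKM in MacB1-N. Ear2, an eosinophil-associated ribonuclease with near-identical relatives that reads may be split among, read 7.86, 11.2 and 5. FPKM in MacB3-2wk and 398, 404 and 541 FPKM in MacB1-N. All 3 fell in every lane, which the rule that named them required. G0s2, an inhibitor of the lipase that breaks down stored fat, read 3.47, 0 and 1.51 FPKM in MacB3-2wk and 108, 99.98 and 64.9 FPKM in MacB1-N, so 1 tumour library listed it at 0.

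Most CXC chemokine ligands and part of the CC ligands rose. Of 12 CXC ligands tested, 9 were higher and 1 lower, and of 13 CC ligands 6 were higher and 2 lower, against 8.32% and 13.1% of all genes tested. Median differences were 2.84 for CXC and 1.70 for CC ligands. Cxcl10, an interferon-induced ligand of CXCR3, rose by 4.72. Cxcl10 read 1391, 1146 and 1478 FPKM in MacB3-2wk and 57.2, 33.5 and 62.8 FPKM in MacB1-N, the highest mean of the CXC ligands in MacB3-2wk. Cxcl2, a neutrophil attractant, read 1433, 544 and 664 FPKM in MacB3-2wk and 104, 92.7 and 89.7 FPKM in MacB1-N, with tumour replicate 1 well above the other libraries. Ccl2, the main ligand of CCR2, read 675, 917 and 606 FPKM in MacB3-2wk and 60.97, 68.2 and 77.1 FPKM in MacB1-N. Ccl7, another CCR2 ligand, read 161, 181 and 143 FPKM in MacB3-2wk and 7.84, 2.09 and 1.02 FPKM in MacB1-N. None of these overlapped between groups. Ccl8 (difference 5.67), Ccl24 (4.78) and Ccl6 (1.70) were also called higher, whereas Ccl3, Ccl4 and Ccl5 were not called, with differences of 0.40, 0.40 and 0.49. Ccl9 reached 1979 ± 146 against 588 ± 448 FPKM (SD, n = 3) and was not called (difference 2.03, adjusted p 0.182).

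The 3 chemokine genes that fell are known from dendritic cells and stroma. Ccl17, a CCR4 ligand (chr8:94810453-94812036), read 15.8, 19.3 and 25.7 FPKM in MacB3-2wk and 403, 271 and 411 FPKM in MacB1-N. Its neighbour Ccl22, which binds the same receptor (chr8:94745590-94751699), read 15.3, 0.889 and 36.6 FPKM in MacB3-2wk and 314, 239 and 244 FPKM in MacB1-N. Both were lower in every tumour library than in any naive one, with Ccl22 spread widely among the tumour libraries. Cxcl12, a stromal ligand of CXCR4, fell by 2.49 log2 units. Among 10 chemokine receptors tested 4 were higher and 2 lower, against 8.32% and 13.1% of all genes tested. Ccr1, Ccr2 and Cmklr1, the chemerin receptor, rose by 2.86, 1.17 and 3.15, with Ccr2 not called without naive replicate 1 (0.93) or with the protein-coding rescaling (0.89). Ccr7, which guides dendritic cells to lymph nodes, read 8.04, 2.81 and 12.98 FPKM in MacB3-2wk and 81.1, 80.7 and 83.9 FPKM in MacB1-N, and Cxcr4 also fell, by 1.39. Cx3cr1, the fractalkine receptor of monocytes, overlapped between groups at 94.7, 72.2 and 74.3 FPKM in MacB3-2wk and 94.9, 100.2 and 70.4 FPKM in MacB1-N.

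Most interferon-stimulated genes rose. Of 25 type I interferon-stimulated genes 19 were higher and none lower, against 8.32% and 13.1% of all genes tested. Their median difference was 1.52. Their sums overlapped between groups, at 4461 to 6412 FPKM in MacB3-2wk and 2566 to 4487 FPKM in MacB1-N. Naive MacB2-N, a gate without CD11c, had 5985.5 to 9167 FPKM. Of 13 guanylate-binding and immunity-related GTPases that interferon gamma induces 8 were higher and none lower, with a median of 1.29. Isg15, a ubiquitin-like modifier, read 187, 123 and 188 FPKM in MacB3-2wk and 17.9, 14.04 and 15.5 FPKM in MacB1-N. Irf7, a transcription factor of the interferon response, read 776, 750.5 and 1096 FPKM in MacB3-2wk and 186, 137 and 70.5 FPKM in MacB1-N. Rsad2, an antiviral radical-SAM enzyme, read 59.6, 61.6 and 61.4 FPKM in MacB3-2wk and 8.48, 3.65 and 5.71 FPKM in MacB1-N. All 3 tumour libraries were above all 3 naive ones for each gene. Gbp2 and Irgm1, GTPases that act on pathogen-holding vacuoles, rose by 2.21 and 2.11.

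Promoters of 5 interferon-induced genes that rose and hold the element searched are shown, 4 from the type I list and Cxcl10 from the CXC ligands. Interferon acts through the interferon-stimulated response element, searched here as GAAA, any 2 bases and GAAA again, on both strands, in the 250 bases before and 50 after each RefSeq start site (GRCm38.p6). Of the 18 type I interferon-stimulated genes with a promoter entry, 11 held it, as did 1079 of 27025 genes in the table (3.99%). It was in 2 of 10 CXC ligands and 0 of 13 nonclassical monocyte genes with an entry. Irf7 was among the 7 type I genes without a match. The stretches below run 5′ to 3′ along the gene, with each match in capitals (TTTC-type matches are the same motif on the other strand).
Isg15 (chr4:156200845-156200914, minus strand): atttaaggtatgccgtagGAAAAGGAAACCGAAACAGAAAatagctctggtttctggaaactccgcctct
Ifit1 (chr19:34640774-34640843, plus strand): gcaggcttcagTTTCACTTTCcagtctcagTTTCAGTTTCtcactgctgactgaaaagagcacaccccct
Ifit3 (chr19:34583377-34583446, plus strand): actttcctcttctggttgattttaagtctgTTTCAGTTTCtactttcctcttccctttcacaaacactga
Rsad2 (chr12:26456533-26456602, minus strand): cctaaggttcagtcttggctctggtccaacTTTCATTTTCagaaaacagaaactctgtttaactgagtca
Cxcl10 (chr5:92349063-92349132, minus strand): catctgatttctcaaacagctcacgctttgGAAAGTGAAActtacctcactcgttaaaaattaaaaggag
The Isg15 stretch holds 3 overlapping matches and the Ifit1 stretch 2 separate ones. The match nearest the start site begins 66 bases before it in Isg15, 85 in Ifit1, 122 in Ifit3, 120 in Rsad2 and 213 in Cxcl10. Ifit1, which blocks translation of foreign RNA, read 22.8, 26.8 and 26.98 FPKM in MacB3-2wk and 2.77, 1.92 and 5.68 FPKM in MacB1-N, and Ifit3 read 21.1, 27.2 and 26.3 FPKM in MacB3-2wk and 3.02, 2.34 and 3.46 FPKM in MacB1-N. A match is a stretch of letters, and binding was not measured.

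Genes of lipid-laden macrophages and of the lysosome rose together. Of 14 genes associated with Trem2-positive macrophages 11 were higher and none lower, against 8.32% and 13.1% of all genes tested. Their median difference was 2.96. They summed to 9822 to 12486 FPKM in MacB3-2wk and 2922 to 3780.5 FPKM in MacB1-N. The naive alveolar macrophage group MacA-N had a like level, at 7556 to 11472 FPKM. Trem2, a lipid-sensing receptor, read 240.0, 241 and 323 FPKM in MacB3-2wk and 4.73, 5.39 and 3.71 FPKM in MacB1-N. Spp1, osteopontin, read 358, 655 and 377 FPKM in MacB3-2wk and 7.26, 10.5 and 19.9 FPKM in MacB1-N. Fabp5, a fatty acid-binding protein, read 237, 468 and 269 FPKM in MacB3-2wk and 16.9, 22.3 and 14.4 FPKM in MacB1-N. All 3 were higher in every tumour library. Tyrobp, the signalling partner of Trem2, was not called (difference 0.89, adjusted p 0.0774), nor were Cd9 (0.54) and Lpl (0.44). Wider lipid handling genes were mixed, with 3 of 18 higher and 5 lower. The cholesterol exporter Abca1 rose by 2.52, and the fatty acid genes Cd36, Fabp4, Scd1 and Dgat2 fell by 1.93, 1.96, 2.15 and 1.71. The table listed Hmgcs1, a cholesterol synthesis enzyme most cells make, at 0 in all 6 libraries.

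Of 30 lysosome and cathepsin genes 25 were higher and none lower, against 8.32% and 13.1% of all genes tested. Their median difference was 1.67. Their sums were 18069 to 20503 FPKM in MacB3-2wk, 5225 to 6214.5 FPKM in MacB1-N and 12953 to 14114 FPKM in MacA-N. Ctsc, cathepsin C, read 3268, 3812 and 3916 FPKM in MacB3-2wk and 360.3, 324 and 318 FPKM in MacB1-N. Ctsd, cathepsin D, read 922, 1171 and 1018 FPKM in MacB3-2wk and 87.1, 115 and 222 FPKM in MacB1-N. Both were higher in each tumour library than in any naive one, with naive replicate 3 the highest naive library for Ctsd. Ctsl, Cd63, Lgmn and Grn rose by 3.31, 3.71, 2.61 and 2.16. The 5 not called were Ctse, Lamp2, Neu1, Lipa and Atp6v1h. The factor TFEB and its relatives drive lysosome genes through an element with the core TCACGTGA, which reads the same on both strands and was searched in the same promoter windows. It was found in 3 of 22 list members with an entry (Ctsa, Ctsd and Gla), against 304 of 27025 genes (1.12%). The Ctsd stretch is shown because that gene was among the most changed of the 3, with the core in capitals 99 bases before the start site.
Ctsd (chr7:142387889-142387956, minus strand): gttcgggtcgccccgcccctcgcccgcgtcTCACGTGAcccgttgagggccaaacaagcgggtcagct

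Complement genes outside C1q were mixed. Of 16 tested, 7 were higher, the 3 C1q chains included, and 3 lower, against 8.32% and 13.1% of all genes tested. C3ar1, the receptor for the C3a fragment, read 167, 224 and 192 FPKM in MacB3-2wk and 3.03, 2.78 and 5.04 FPKM in MacB1-N. Cfb, a component of the alternative pathway, read 78.99, 76.4 and 90.7 FPKM in MacB3-2wk and 3.85, 2.35 and 2.63 FPKM in MacB1-N. Both were apart between groups, as was C5ar1 (difference 2.54). The inhibitors Serping1 and Cd55 fell by 2.52 and 2.21. Of 6 Fc gamma receptor genes 5 were higher, Fcgr1 among them. Fcgr4, the receptor known from patrolling monocytes, fell by 1.10 and was not called without naive replicate 1 (-0.82).

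Uptake receptors also split. Of 18 scavenger and apoptotic-cell receptors 8 were higher and 4 lower, against 8.32% and 13.1% of all genes tested. Msr1, Stab1, Axl and Mertk rose by 3.97, 3.34, 2.13 and 2.01. Timd4, Cd163, Cd36 and Scarb1 fell by 3.01, 1.63, 1.93 and 1.59. Of 15 Toll-like receptor genes and adaptors 7 were higher and none lower, among them Tlr4 (2.83) and its co-receptor Cd14 (1.85).

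Matrix, growth factor and metabolic genes formed a further block. Of 13 metalloproteinase and inhibitor genes 9 were higher and 1 lower, against 8.32% and 13.1% of all genes tested. Their median difference was 2.42. Mmp14, a membrane-bound collagenase, read 234, 171 and 259.5 FPKM in MacB3-2wk and 8.19, 6.84 and 6.12 FPKM in MacB1-N. Mmp12, macrophage elastase, read 396, 403 and 745 FPKM in MacB3-2wk and 23.4, 30.2 and 43.8 FPKM in MacB1-N. Mmp13, a collagenase, read 12.2, 17.8 and 21.6 FPKM in MacB3-2wk and was listed at 0 in all 3 MacB1-N libraries, so no fold is given. The inhibitor Timp3 was the member that fell, by 2.49. Of 20 angiogenic and growth factors 9 were higher and 1 lower. Tgfbi, a matrix protein induced by TGF-beta, read 788, 637 and 871 FPKM in MacB3-2wk and 90.8, 76.5 and 73.4 FPKM in MacB1-N. Vegfa, the main angiogenic factor, read 347, 243 and 173 FPKM in MacB3-2wk and 72.5, 102 and 57.5 FPKM in MacB1-N. Plau, urokinase, and Thbs1, thrombospondin 1, rose by 3.58 and 3.08, and Vegfc fell by 2.42.

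In arginine metabolism 7 of 12 genes were higher and 2 lower, against 8.32% and 13.1% of all genes tested. Nos2, the inducible nitric oxide synthase that competes with arginase for arginine, read 3.93, 5.27 and 3.04 FPKM in MacB3-2wk and 0.220, 0.280 and 0.121 FPKM in MacB1-N and so stayed far under Arg1 in each tumour library. Arg2, Ass1 and Slc7a2 rose by 1.90, 2.40 and 1.74, and the polyamine genes Sat1 and Oaz1 fell by 1.36 and 1.56. Of 21 glycolysis and hypoxia genes 15 were higher and none lower. Slc2a1, the glucose transporter GLUT1, read 599, 537 and 663 FPKM in MacB3-2wk and 103, 63.3 and 47.1 FPKM in MacB1-N. Bnip3, a hypoxia-induced mitophagy protein, read 249.7, 236 and 264 FPKM in MacB3-2wk and 15.04, 12.6 and 8.01 FPKM in MacB1-N. Gapdh was not called (-0.23), and reads of Gapdh, Aldoa, Tpi1 and Eno1 may be shared with their many pseudogenes. Hmox1, which degrades heme, read 1243, 3127 and 2350.0 FPKM in MacB3-2wk and 274, 213 and 142 FPKM in MacB1-N. Of 20 nuclear oxidative phosphorylation genes 9 were higher and 1 lower, with 4 and 0 left without naive replicate 3, 5 and 0 with quantile normalization and 3 and 1 with the protein-coding rescaling.

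Cell cycle genes were higher at low levels. Of 16 DNA replication genes 10 were higher and none lower, and of 16 mitosis genes 10 were higher and none lower. Medians of these lists were 1.2 and 1.44. The shares over all genes tested were 8.32% higher and 13.1% lower. Top2a, a topoisomerase of dividing cells, read 51.9, 66.1 and 45.9 FPKM in MacB3-2wk and 9.77, 10.5 and 13.8 FPKM in MacB1-N. Ccna2 and Cdk1 rose by 2.71 and 3.15, while Mki67, the Ki-67 proliferation marker, was not called (0.73, adjusted p 0.326). Of 20 ribosomal protein genes 1 was higher and 1 lower.

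Antigen presentation genes were mostly not called. Of 10 MHC class II genes none was higher and 3 were lower, against 8.32% and 13.1% of all genes tested. Those lower were H2-Oa (-3.21), H2-Ob (-2.59) and H2-DMb2 (-1.33), which regulate peptide loading. H2-DMb2 lost its call when any library but tumour replicate 3 was left out, at differences of -1.5 to -1.08. H2-Aa, a chain of the surface I-A molecule, read 1573, 1705 and 1999.6 FPKM in MacB3-2wk and 1904, 1929 and 2304 FPKM in MacB1-N, with overlapping groups. Of 13 MHC class I presentation genes 1 was called, the immunoproteasome gene Psmb8, higher by 1.24 and not called without naive replicate 3 (0.98) or with the protein-coding rescaling (0.96). Cd274, which encodes the checkpoint ligand PD-L1, read 34.4, 26.3 and 22.8 FPKM in MacB3-2wk and 44.2, 42.6 and 35.2 FPKM in MacB1-N. Its groups did not overlap but the difference of -0.54 ± 0.26 (SE) was not called (adjusted p 0.122). Of 15 costimulatory and checkpoint genes tested 4 were higher and 2 lower, and with the protein-coding rescaling 2 and 4. The largest rise was 1.98 for Lgals9, at means of 172 FPKM in MacB3-2wk and 43.3 FPKM in MacB1-N. Cd83, a marker of mature dendritic cells, fell by 2.57, and Cd40 was not called (0.90). Among 15 cytokine and inflammasome genes tested 5 were higher, 3 with the protein-coding rescaling, and 2 lower, the latter near the share of all genes. Il1rn, the natural antagonist of interleukin-1, read 992, 865 and 1191 FPKM in MacB3-2wk and 60.8, 67.7 and 68.1 FPKM in MacB1-N, whereas Il1b overlapped between groups at 1714, 722 and 1139 FPKM in MacB3-2wk and 1384, 2129.5 and 1120.3 FPKM in MacB1-N. Il12b and Il18 fell by 1.56 and 1.31, Il18 not being called without naive replicate 3 (-0.98).

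Genes that interleukin-4 induces in macrophages did not move as a block. Of 13, 5 were higher and 5 lower, against 8.32% and 13.1% of all genes tested. Arg1, Ccl24, Egr2, Socs1 and Mrc1 rose. Mrc1, the mannose receptor, rose by 1.19 and lost its call without tumour replicate 2 (0.88) or naive replicate 1 (0.96) or 2 (1.12), or with the protein-coding rescaling (0.91). Retnla, a secreted resistin-like protein, read 20.96, 26.98 and 25.4 FPKM in MacB3-2wk and 552, 419 and 413 FPKM in MacB1-N, and Mgl2, Clec10a, Klf4 and Chil3 were lower too. For Chil3, a chitinase-like protein, naive replicate 3 stood apart in 26.6, 17.4 and 24.1 FPKM in MacB3-2wk and 39.1, 38.6 and 362 FPKM in MacB1-N. Without that library the Chil3 difference was -0.77, and without tumour replicate 2 it was -1.66, not called in either case.

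Macrophage transcription factors moved in both directions, with 7 of 24 higher and 7 lower, against 8.32% and 13.1% of all genes tested. Maf, a factor of resident macrophages, read 89.9, 100.5 and 93.6 FPKM in MacB3-2wk and 12.6, 10.5 and 7.73 FPKM in MacB1-N. Nr4a1, needed for patrolling monocytes, read 816, 242 and 464 FPKM in MacB3-2wk and 2779, 2478 and 1848 FPKM in MacB1-N. Pparg, the lipid-sensing receptor that alveolar macrophages depend on, read 4.63, 4.86 and 5.23 FPKM in MacB3-2wk and 46.2, 46.1 and 35.7 FPKM in MacB1-N. The groups did not overlap for any of these 3. Cebpa, Irf8, Mitf, Tfec and Bhlhe41 rose by 1.53, 1.5, 2.11, 2.89 and 3.21, and Irf4, Klf2, Klf4, Bhlhe40 and Tcf7l2 fell by 2.38, 2.25, 1.44, 1.62 and 1.33. Of 19 immediate early genes, which respond within minutes to handling of cells, 7 were lower and 2 higher. Nr4a1 belongs to that list as well.

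**Figure D3:**
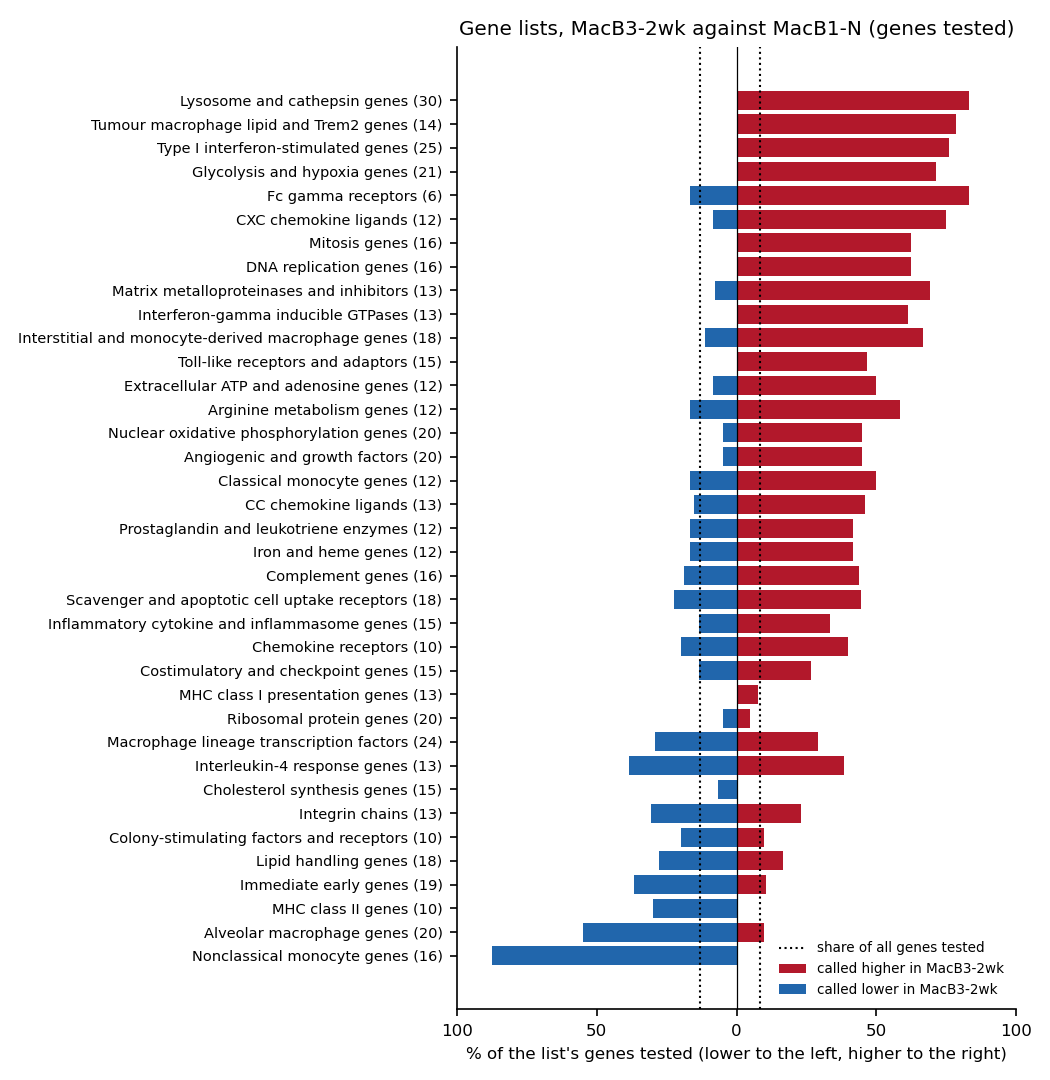
Bars give the share of each list's tested genes called higher (red, to the right) or lower (blue, to the left) in MacB3-2wk, with the number tested in brackets. Dotted lines mark the share of all genes tested, 8.32% higher and 13.1% lower. Among the lists drawn, lysosome genes reach furthest to the right without any lower member and nonclassical monocyte genes furthest to the left without any higher one. Marker lists of dendritic cells, lymphocytes, granulocytes, mast cells, red cells and platelets, and of endothelial, fibroblast and epithelial cells, are not drawn.

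Marker lists of myeloid cell types moved strongly. Of all genes tested 8.32% were called higher and 13.1% lower. Of 16 nonclassical monocyte genes 14 were lower and none higher, with a median of -3.87, and their summed level was 724 to 1408 FPKM in MacB3-2wk and 5056 to 8417 FPKM in MacB1-N. Itgal, Spn and Ceacam1 fell by 3.57, 4.42 and 4.16. Of 15 dendritic cell genes tested 10 were lower and none higher, with sums of 149 to 220.2 and 496 to 618 FPKM. Zbtb46 and Flt3 are used as markers of conventional dendritic cells but are not confined to them. They read 5.69, 14.4 and 9.89 and 4.92, 6.79 and 8.28 FPKM in MacB1-N and at most 2.15 FPKM in MacB3-2wk. Of 18 genes of interstitial and monocyte-derived macrophages 12 were higher and 2 lower, with sums of 8354 to 10308 and 2318 to 2998 FPKM. That list holds Fcgr1, whose protein set the gates, and C1qa and Pf4, named above for their large differences. Ms4a7, Folr2 and Tmem119 rose by 5.57, 5.04 and 4.52, and Emr1, which encodes F4/80, was not called (0.28). Of 12 classical monocyte genes 6 were higher and 2 lower, with differences from -2.16 to 3.47. Chil3 (-1.835) was among the lower ones and Ly6c2 was the highest. Ly6c2, whose reads may be shared with its close relative Ly6c1, read 628, 449 and 566 FPKM in MacB3-2wk and 72.2, 38.2 and 39.9 FPKM in MacB1-N.

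Of 20 alveolar macrophage genes 11 were lower and 2 higher, against 13.1% and 8.32% of all genes tested. Their sums were 309 to 421 FPKM in MacB3-2wk and 909 to 1621 FPKM in MacB1-N, the highest being naive replicate 3. Without that library 6 were lower. The list holds Ear2 (-5.68) and Chil3 (-1.835), whose levels are given above. Ear2 was a large part of each naive sum, and Chil3 of the sum of naive replicate 3. The naive gate, named a macrophage gate, thus held RNA of patrolling monocyte and dendritic cell genes at levels above the tumour gate. Fewer cells of a type and less RNA per cell cannot be told apart in sorted bulk samples. How much a change in cell makeup accounts for in the lists above was not tested.

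RNA of most cell types outside the myeloid gates was also higher in the naive libraries. All 16 endothelial genes were lower in MacB3-2wk, with sums of 118 to 162 against 677 to 863 FPKM. Of 15 epithelial genes 12 were lower, at 171 to 603 against 3790.3 to 13213 FPKM. Scgb1a1, the club cell secretoglobin, made up most of that sum and read 109.6, 139 and 549 FPKM in MacB3-2wk and 12684, 7494 and 2742 FPKM in MacB1-N. Of 16 fibroblast and matrix genes 7 were lower and none higher, at 146 to 179 against 536 to 717 FPKM. T cell and B cell genes summed to 16.1 to 29.7 and 40.03 to 53.9 FPKM in the tumour libraries and were lower for 6 of 12 and 4 of 8 members tested. Of 9 neutrophil genes tested 1 was higher, Mmp9 (4.44), and 2 were lower, against 8.32% and 13.1% of all genes tested. The neutrophil sums overlapped, at 145 to 377 FPKM in MacB3-2wk and 101 to 210 FPKM in MacB1-N. Ly6g and Elane were listed at 0 in all 6 libraries. Epcam, an epithelial and carcinoma surface protein, read at most 0.174 FPKM in MacB3-2wk. Cdh1, of the same epithelial list, averaged 9.185 FPKM there and 8.464 FPKM in MacB1-N and was not called (-0.27). The part of such RNA in the differences reported was not tested.

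**Figure D4:**
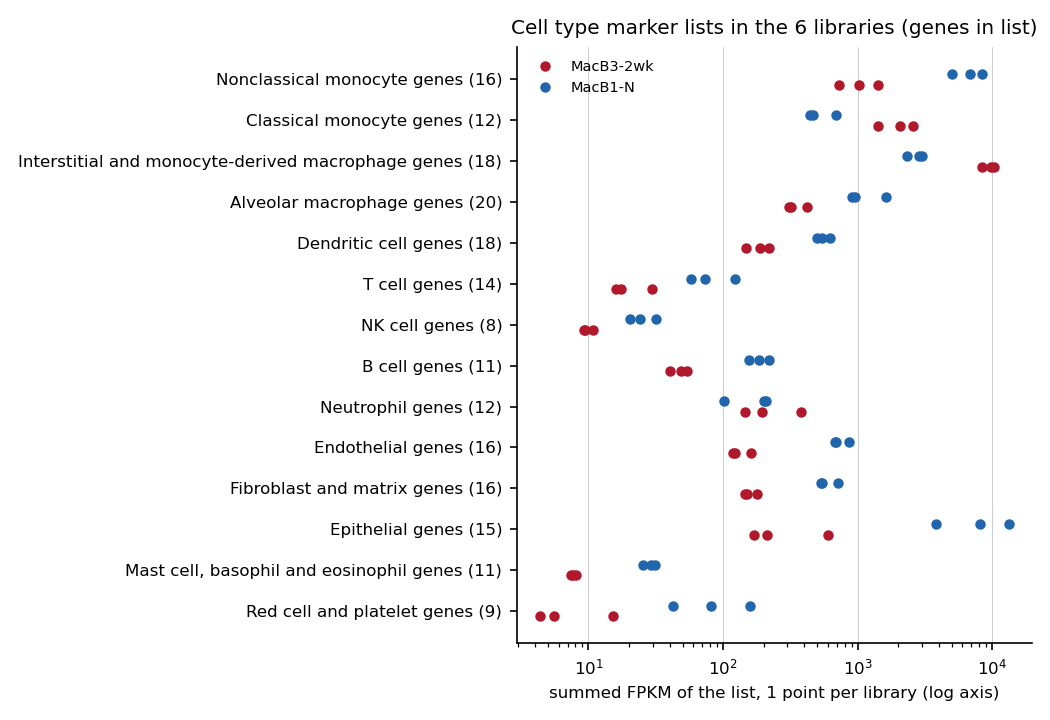
Each point is the summed FPKM of a marker list in 1 library (red MacB3-2wk, blue MacB1-N, log x axis), with the number of genes in brackets. Lists of interstitial macrophages and classical monocytes lie higher in the tumour libraries, neutrophil genes overlap, and the other lists lie higher in the naive libraries.

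A second tumour group, MacB3-3wk, was sorted with the same gate 3 weeks after injection, and its comparison shares the 3 MacB1-N libraries. There 1632 of 17156 genes were higher (9.51%) and 2174 lower (12.7%). For Arg1 the differences were 8.56 at 2 weeks and 8.22 at 3 weeks, for C1qa 5.96 and 6.10, for Spp1 5.15 and 5.48, and for Pglyrp1 -7.13 and -6.85. Type I interferon-stimulated genes had 19 of 25 members higher at 2 weeks and 11 at 3 weeks. Ccr2 was called higher at 2 weeks (1.17) and not at 3 weeks (0.38, adjusted p 0.25). These values stand side by side, and the change between weeks was not tested.

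The series offered a second tumour and naive pair at 2 weeks, MacB2-2wk and MacB2-N, both sorted as CD11b+ Ly6G- cells with intermediate CD64 and no CD11c. It shares no library with the comparison above, so the difference between the differences could be tested. In 473 of 17156 genes (2.76%) the change was more positive from MacB1-N to MacB3-2wk than from MacB2-N to MacB2-2wk, and in 1061 (6.18%) more negative, 8.94% in all. Without MacB2-N replicate 3 the counts were 660 and 1466, and without MacB2-N replicate 2 they were 325 and 626. Quantile normalization gave 696 and 640, and the protein-coding rescaling 273 and 1268. For Spp1 the differences were 5.15 in the first pair and 4.17 in the second, and their own difference of 0.98 ± 0.64 (SE) was not called (adjusted p 0.385). Mmp12 had 3.93 and 4.03 (adjusted p 0.964), and Top2a 2.17 and 2.30 (adjusted p 0.913). C1qb had 5.26 in the first pair against 1.52 in the second, a difference of 3.75 ± 0.47 (SE) with an adjusted p of 6.69e-05 from limma. Trem2 had 5.58 against 0.50 (adjusted p 1.23e-05) and Maf 3.11 against -0.21 (adjusted p 1.32e-07). The dendritic cell chemokines had opposite signs, with -4.09 against 1.72 for Ccl17 (adjusted p 6.56e-05) and -4.66 against 2.54 for Ccl22 (adjusted p 0.000877). The second pair kept 1 gate in both conditions while the first did not, so gate and tumour response cannot be told apart in this test.

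**Figure D5:**
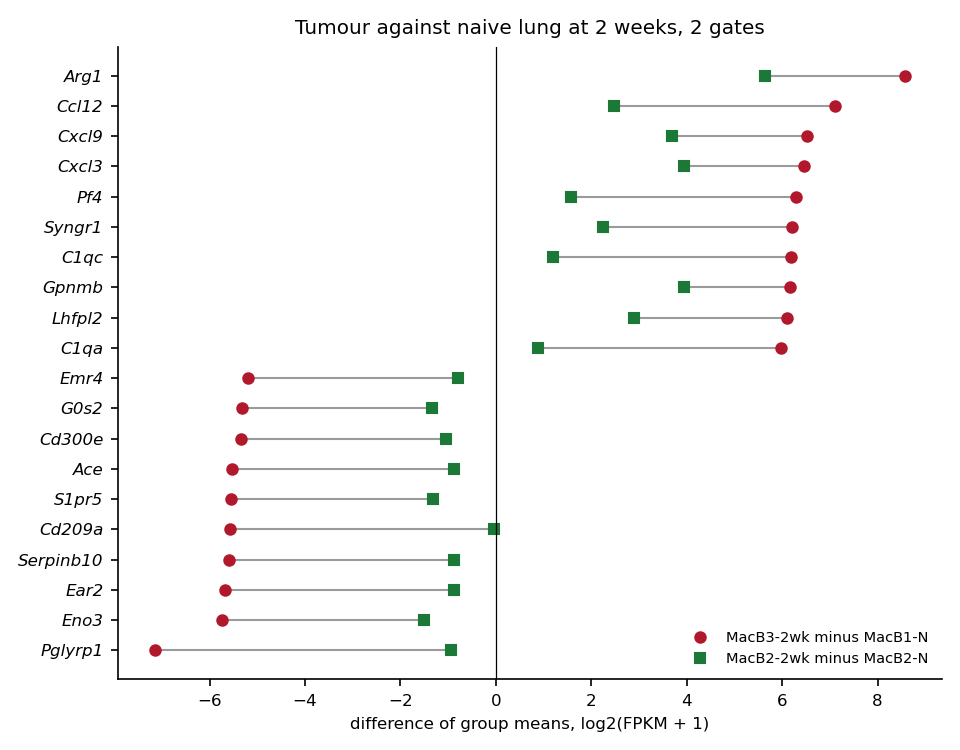
Each row is 1 of the 20 named genes. Red circles give MacB3-2wk minus MacB1-N and green squares MacB2-2wk minus MacB2-N, both as differences of group means in log2(FPKM + 1). All 20 circles lie further from 0 than the squares. The genes were picked for the size of the circles.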

How the data were processed

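RNA sequencing libraries of sorted lung phagocytes were used in 24 samples (8 groups of 3), of which 6 form the comparison. FPKM values per gene were deposited by the authors in 1 table. Per the submitters' processing notes, FastQC, TopHat2, Cufflinks (2.0.2) and mm10 were used, and per the labels' protocols libraries were made with a NuGen kit with mouse rRNA oligos. Strand handling is not given. Genes with a group mean of at least 1 FPKM in 1 of 8 groups (17156 of 37979) were tested as log2(FPKM + 1) with limma 3.58.1 (R 4.3.3), 1 mean per group over all 24 libraries (16 residual degrees of freedom), mean-variance trend and Benjamini-Hochberg adjustment. Calls needed an adjusted p under 0.05 and a 2-fold difference. The fit was tested on simulated data.

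Named genes were the 10 highest and 10 lowest differences among called protein-coding genes with at least 20 FPKM in the higher group and no overlap, members of 47 gene lists, and a fixed set of markers and chemokines. Members and lists were chosen with earlier results of these data known. Gene positions are from GENCODE M21 (GRCm38), promoters from RefSeq (GRCm38.p6). Replicates came from independent experiments, and p-values measure the spread between pools. The series design text gives the 2-week MacB3 samples the 3-week name, and sample titles were followed. An exact 0 occurred in a library of a group averaging at least 20 FPKM for 350 genes, 5 of them protein coding. Pseudocount, filter, scaling, trend, block, group choice and left-out libraries were varied. Values of some list members are not reported here.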

Additional observations from a re-analysis of the deposited data

Results flagged for a closer look

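In 19 of the 20 named genes the change from MacB1-N to MacB3-2wk differed from the change from MacB2-N to MacB2-2wk by a test of the difference itself (limma, adjusted over 17156 genes). Over all genes tested the share was 8.94%. The 20 genes were named for the size of the first change, so they favour a larger one there and a high count was largely built in. The gates differ within the first pair only. Among genes that were higher, the difference of differences in log2(FPKM + 1) was largest for C1qa (5.07) and C1qc (4.98). It was 4.70 for Pf4, 4.62 for Ccl12, 3.97 for Syngr1, 3.21 for Lhfpl2, 2.92 for Arg1, 2.84 for Cxcl9 and 2.51 for Cxcl3. Cxcl3 (adjusted p 0.0474) lost its call without any 1 of 10 of the 12 libraries (2.18 to 2.73) and with a pseudocount of 0.1 (adjusted p 0.0589), no filter (0.0671), no trend (0.0509), the protein-coding rescaling (0.0567), only the 18 MacB libraries (0.0645) and both block fits (0.0776 and 0.0906). Lhfpl2 lost its call without naive MacB1-N replicate 2 (2.91), with only the 4 groups of the test (adjusted p 0.0853) and with the block in them (0.0807), and Ccl12 with a pseudocount of 0.1 (0.224). Gpnmb was the exception (2.21, adjusted p 0.0775) and was called without MacB1-N replicate 3 (3.03).

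Among genes that were lower it was -6.20 for Pglyrp1, -5.53 for Cd209a, -4.80 for Ear2, -4.72 for Serpinb10, -4.64 for Ace, -4.38 for Emr4, -4.31 for Cd300e, -4.24 for Eno3, -4.24 for S1pr5 and -4.0 for G0s2. Each of the 10 highest genes was also higher in MacB2-2wk than in MacB2-N, by 0.89 (C1qa) to 5.65 (Arg1), and each of the 10 lowest was lower there, by differences of -1.50 (Eno3) to -0.05 (Cd209a). Of the 2 changes, the second is a description with no test of its own here.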

How the results depend on the processing

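Of the 155 named genes called between MacB3-2wk and MacB1-N, 112 kept their call under all 16 alternatives and 43 lost it under at least 1, while 0 changed sign. 42 of the 43 lost it with replicate number as a block in only the 6 libraries, a fit chosen after seeing the data that leaves fewer degrees of freedom, namely Ccr2, Ccl22, Ccl6, Fcgr4, Itgb5, Itgb7, Itga5, H2-DMb2, H2-Ob, Psmb8, Irf7, Chil3, Mrc1, Clec10a, Klf4, Egr2, Il18, Il12b, Cd14, Cd36, Fabp4, Dgat2, Ctsa, Atp6v0d2, Mertk, Cd163, Mmp9, Vegfa, Thbs1, Slc7a2, Oaz1, P2ry12, P2ry14, Ltc4s, Hmox1, Blvrb, Ccna2, Nr4a1, Mitf, Zbtb46, Scgb1a1 and Gp9. Some other alternative ended the call of 18: Ccr2, Fcgr4, Itgb5, Itga5, H2-DMb2, Psmb8, Chil3, Mrc1, Klf4, Il18, Ctsa, Atp6v0d2, Cd163, Slc7a2, Oaz1, Ltc4s, Epcam and Gp9. The block in only the groups compared gave 660 genes higher and 1057 lower, 299 and 580 for the difference of differences, and 1015 and 1443 at 3 weeks. The block over the 18 MacB libraries gave 1384 higher and 2204 lower. Same-numbered libraries share a run lane, and over all genes tested their deviations correlated at -0.0271 to 0.0258. Such a correlation cannot show whether lane affected part of the genes. The number was planned as an alternative and was not a term of the reported fit.

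Leaving out 1 library in turn gave 1237 to 1436 genes higher and 1878 to 2246 lower, 325 to 660 and 626 to 1466 for the difference of differences, and 1479 to 1606 and 1909 to 2196 at 3 weeks. Without MacB2-2wk replicate 2 the negative count was 697. For the difference of differences, rescaling to the protein-coding sum gave 273 positive and quantile normalization 640 negative.

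The Itgam difference, not called, turned negative with quantile normalization (-0.14), the protein-coding rescaling (-0.20), without tumour replicate 1 (-0.07) and without naive replicate 3 (-0.12), within a range of -0.12 to 0.20 over left-out libraries. Cx3cr1 at 3 weeks turned negative with that rescaling (-0.031) and without naive replicate 3 (-0.0031), within -0.0031 to 0.26. The cause of these moves was not tested. Of 564 list counts with 1 library left out, 50 moved by over 1.5 times, 5 of them from a count of at least 3, all given beside their lists. Under the block in the 6 libraries 44 of 94 moved, 21 from at least 3, and under the other alternatives 62 of 846, 9 from at least 3. Those 9 were the higher counts of integrin chains (1), cytokine (3), iron (3), costimulatory (2) and oxidative phosphorylation genes (3) with the protein-coding rescaling, the last also with quantile normalization (5), and, with only the 6 libraries, the lower counts of interleukin-4 (3) and alveolar genes (6) and the higher count of prostaglandin genes (3). The absolute depth is unknown, so no interval of counting error is given.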

Other observations

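Some smaller gene groups were also counted, against 8.32% of all genes higher and 13.1% lower. Of 12 genes for extracellular ATP and adenosine 6 were higher and 1 lower. Nt5e, which encodes CD73 and makes adenosine, rose by 2.36, and the nucleotide receptors P2ry6, P2ry12, P2ry13 and P2ry14 rose by 2.10, 2.34, 2.61 and 1.98. Of 12 prostaglandin and leukotriene genes 5 were higher and 2 lower, with 3 higher without naive replicate 1 or with only the 6 libraries fitted. Pla2g4a, the phospholipase that releases arachidonic acid, rose by 2.88, while Hpgd, which inactivates prostaglandins, read 12.2, 21.2 and 11.4 FPKM in MacB3-2wk and 218, 174 and 189 FPKM in MacB1-N. Ptgs2, which encodes cyclooxygenase 2, was not called (0.33).

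Of 13 integrin chain genes tested 3 were higher and 4 lower, with 1 higher under the protein-coding rescaling, where Itga5 was not called (0.98). Itgb5 and Itga5 rose by 1.49 and 1.26, and Itga4, Itgb7 and Itgb3 fell by 2.87, 1.65 and 2.21, besides Itgal. Of 10 growth factor genes of the colony-stimulating family and its receptors 1 was higher and 2 lower, near the shares of all genes. Csf1r, the receptor that macrophages depend on, read 466, 321 and 432 FPKM in MacB3-2wk and 672, 508 and 391 FPKM in MacB1-N and overlapped between groups. Of 12 iron and heme genes 5 were higher and 2 lower, with 3 higher without tumour replicate 3, without naive replicate 2 or with that rescaling. Besides Hmox1, Blvrb, which acts after it, rose by 2.50.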
